A study of Mus musculus with 61 samples.

Results

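The nuclear genes of the mitochondrial respiratory chain were followed through 61 fractions of mouse brain. The members were all genes whose symbol, reached through the RefSeq accession of the probe, starts with Nduf, Uqcr, Atp5, Cox4, Cox5, Cox6, Cox7 or Cox8. This gave 83 of the 16358 named genes on the array, with 103 probes between them. The probe of highest mean intensity stood for each gene. By their names 35 members belong to complex I, 5 are assembly factors of complex I, 8 belong to complex III, 18 to complex IV and 17 to complex V. The brains came from male C57BL/6J mice of 8 weeks, and the study perfused them with RNAlater before freezing. Each brain was cut into slabs of 1 mm in a single plane, and each slab was 1 array. Series C and Co were coronal with 13 and 16 fractions, S and So sagittal with 9 and 10, and H and Ho horizontal with 6 and 7. The second series of each plane was cut at a slightly oblique angle. Each series was 1 mouse, so that mouse, cutting angle and series cannot be told apart, and the p-values measure the spread between partner fractions of only 2 mice per plane. Fraction numbers are those of the sample labels, in which S runs from 2 to 10.

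Complex I takes electrons from NADH, complex III passes them from ubiquinol to cytochrome c, and complex IV hands them to oxygen. The proton gradient that these pumps build drives complex V, the ATP synthase. Most subunits are nuclear genes of broad expression, and a few of complex IV come as isoforms of which a ubiquitous form is replaced by another in heart, skeletal muscle, lung or testis. Neurons spend most of their ATP on restoring ion gradients, and respiratory enzymes are known to be dense where synapses and fast-firing cells are dense. The mitochondrially encoded subunits were not analysed here.

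On each array 57.9% to 73.1% of all probes were well above background. Of the 83 members, 81 were well above background on all 61 arrays. The other two were Cox4i2, the lung isoform of subunit 4, on 10 arrays and Cox8c, the testis isoform of subunit 8, on 1 array. No fold change of either is interpreted. Cox8c is named where it enters the adjusted counts over the pairs and in the coronal middle, without a block. Other counts over the 83 members may include either gene. The members were bright: 44 were read at the low gain of the scanner on all arrays. The arrays lay on 16 slides, mostly of neighbouring fractions of 1 mouse, and were scanned in 5 sessions. S2 shared its slide and session with So1 and So2, and C13 shared its slide with H1 and H2.

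The levels of most respiratory chain genes spread less between fractions than those of the median probe, in 61 of the 81 members detected on all arrays. The 56 arrays in 28 pairs of matched positions, 1 per mouse of a plane, were tested with limma's moderated F. This F covers the pairs of all planes at once. Differences of level between planes, which are different mice, thus enter it, with or without the mouse block below. Within single planes fewer members varied, as given at the end. Co1, Co16, So1 and Ho1 were among the arrays outside these pairs, and entered none of the main fits. At an adjusted p under 0.05 (Benjamini-Hochberg over all detected probes) 31 of 83 members varied, or 37.3%, against 61.2% of the probes tested. Cox8c, well above background on only 1 array, is among the 31. Fractions of a series come from 1 mouse, and with the mouse as a replicate block 72 members varied, or 86.7%, against 81.0% of the probes tested. How many members varied, and whether this was a smaller share than of all probes, thus depends on the block. The median F was 1.82 for the members and 2.58 for all detected probes. After each series was centred on its own mean, the SD over the 61 fractions had a median of 0.19 (log2) for the 81 members detected on all arrays, and of 0.24 for the 22323 probes detected on all arrays. These members were also much brighter, with a median level of 4.92 (log2) against −0.28 for those probes. Their spread was not compared with that of probes of like level. In bulk tissue, fewer cells of a type and less RNA per cell cannot be told apart, here and in all that follows.

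By complex, and without that block, 15 of 35 members of complex I varied, 2 of 5 assembly factors, 0 of 8 of complex III, 7 of 18 of complex IV and 7 of 17 of complex V. Cox8c is among the 7 of complex IV. At an unadjusted p under 0.05 limma called 39 of the 83 members. Counts at an unadjusted p, here and below, are given without the share of all probes and cannot be read against it. The 5 members with the smallest F were Ndufs7 (0.381), a core iron-sulfur subunit of complex I, Ndufb5 (0.502), Ndufab1 (0.506), the mitochondrial acyl carrier protein, Cox7c (0.643) and Ndufc1 (0.643). F is also small where partner mice differ, so a small F does not mean an even level. A large F can also come from levels that differ between planes. Cox7c had an SD of 0.39 over the centred fractions, against the members' median of 0.19. Ndufb5, Ndufab1, Cox7c and Ndufc1 all differed between mice C and Co, as given below. The largest F by far was that of Cox6a2 (51.2), the heart and muscle isoform of subunit 6a of complex IV. It was followed by Cox7a1 (5.85), the heart and muscle isoform of subunit 7a, and Cox7a2l (5.62), a factor of supercomplex assembly. Cox8b (3.86), the heart and muscle isoform of subunit 8, came next after Cox8c, which was at background. Then came Ndufa4 (3.76), named for complex I and since found with complex IV, the accessory subunits Ndufb8 (3.70), Ndufv3 (3.56) and Ndufb11 (3.55), and the assembly factor Ndufaf4 (3.41).

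**Figure D1:**
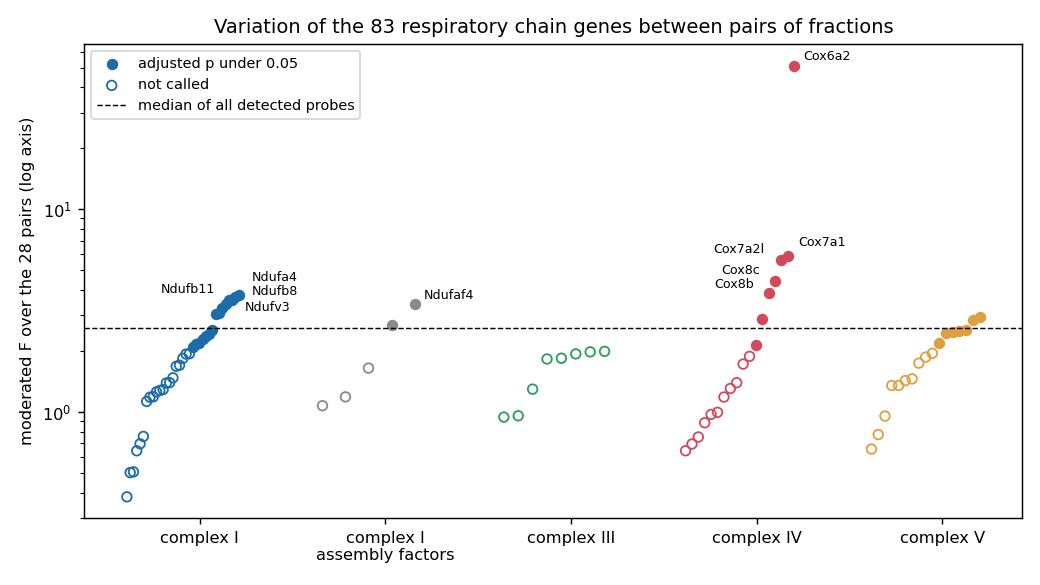
Moderated F over the 28 pairs of fractions (log axis) for each of the 83 respiratory chain genes, grouped by complex and sorted by F. Filled points passed the adjusted p, and the dashed line is the median of all detected probes (2.58). Cox6a2 stands alone at 51.2, and the other 82 members lie at 5.85 or below.

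The subunits of complexes I, III and V moved together from fraction to fraction. Over the 61 fractions their means correlated with r = 0.975 (I and V), 0.981 (III and V) and 0.984 (I and III). Complex IV was less like them (r = 0.757 to 0.794), and the 5 assembly factors of complex I least (r = 0.314 to 0.457). The mean of complex IV includes Cox8c and Cox4i2, at background on most arrays, and Cox7c, whose level in C went with the slide. It also includes Cox6a2 and Cox8b, whose centred values ranged over 5.40 and 5.22 (log2). The mean without these genes was not compared. These are descriptions over fractions that share mice, slides and scaling.

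Over all 83 members the mean was highest at the cut ends of 4 series, relative to the mean of each series. It reached 0.48 (log2) in C13, 0.38 in Co1, 0.36 in So1 and 0.41 in Ho1, and its lowest values in these series were −0.20 in C9, −0.12 in Co7, −0.14 in So6 and −0.18 in Ho2. C13 is the rostral end and Co1 the caudal end, and So1 and Ho1 are the left and dorsal ends. Of these, Co1, So1 and Ho1 lay outside the pairs. Series H spanned only 0.13 from its lowest to its highest fraction, and the outermost fraction of S, S2, was low instead (−0.21). The ends were thus high in some mice and not in others. Between partner mice the mean correlated with r = 0.597 over 13 coronal pairs, 0.636 over 6 horizontal pairs and 0.165 over 9 sagittal pairs.

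Within the complexes, complex V spanned the widest range in C, from −0.22 in C7 to 0.66 in C13, and complex I spanned −0.24 to 0.47. The mean of the assembly factors in C13 was −0.18, its lowest in the series. In the coronal plane the partner mice correlated with r = 0.734 for complex I, 0.761 for complex III, 0.809 for complex V and 0.027 for complex IV. The mean of complex IV includes Cox8c, at background in all coronal fractions, and Cox4i2, well above background in 1 fraction of C and 7 of Co. It also includes Cox7c, detected in all fractions, whose coronal change differed between these mice, as given below. The part of these genes in the low r was not tested.

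**Figure D2:**
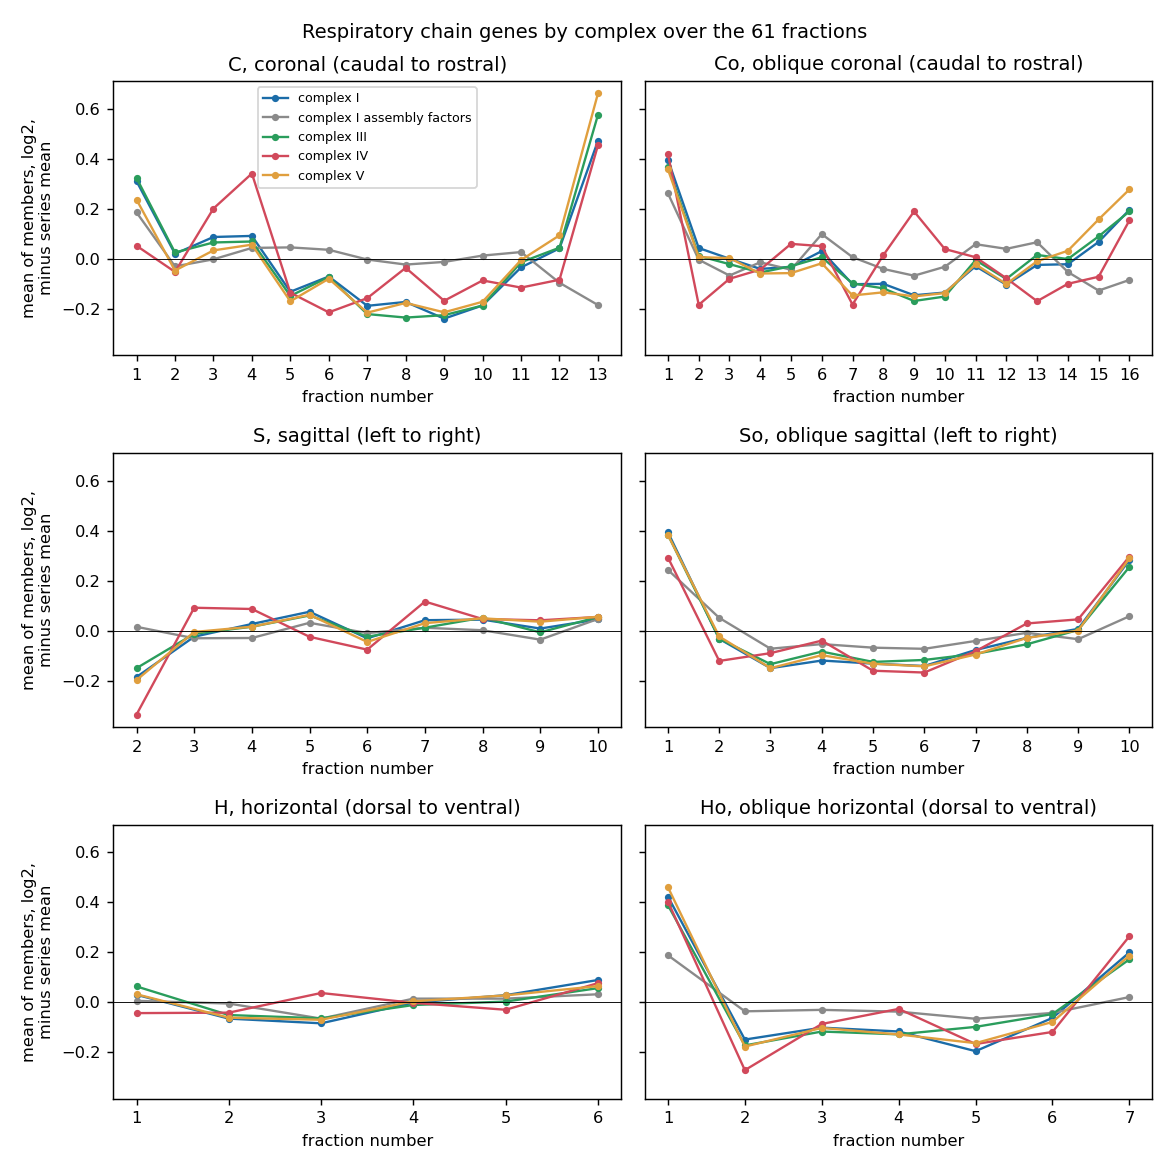
Mean log2 level of the members of each complex, minus its mean over the series, in each fraction of the 6 series. Complexes I, III and V run together, with the highest values at C13, Co1, So1 and Ho1. The lines of complex IV and of the assembly factors depart from them.

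The members closest to the mean of the other members of their complex over the 61 fractions were Ndufa4 (r = 0.967), Atp5j2 (0.966) and Ndufb2 (0.964), followed by Atp5l (0.964) and Ndufa13 (0.962). Atp5j2 and Atp5l are the small membrane subunits f and g of the ATP synthase. The median of this r was 0.882 in complex I, 0.834 in complex III, 0.914 in complex V and 0.59 in complex IV. At the other end stood Cox6a2 (−0.414), Ndufaf4 (−0.236), Ndufa10 (0.034), Ndufaf3 (0.095) and Cox8b (0.143). A second probe was present for 15 members, and the 20 other probes correlated with the chosen one with a median r of 0.826. The lowest were a Ndufaf4 probe (0.135) and a probe of Atp5b (0.289), the catalytic beta subunit of the ATP synthase.

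The shared layout moved with the brightness of the array. The 75th percentile of the signal, to which each array was scaled, was lowest in the same end fractions, with 921 in C13, 1340 in Co1, 938 in So1 and 737 in Ho1, against medians of 1227, 1759, 1261 and 1041 in these series. Over the 61 fractions the mean of the members correlated with the log2 of this percentile with r = −0.797, both centred per series. Within series, r was −0.94 in So, −0.90 in Ho, −0.81 in Co, −0.70 in C, −0.42 in S and 0.13 in H.

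Of the 81 members detected on all arrays, 96.3% had a negative r with brightness (median −0.676). Of all 22323 probes detected on all arrays, 50.2% did (median −0.003), and of the 2233 brightest of them, 72.5% (median −0.264). Cox5b (−0.868), Cox6a1 (−0.862) and Cox4i1 (−0.858), ubiquitous subunits of complex IV, had the most negative r. Cox8b (−0.045), Ndufaf4 (0.036), Ndufa10 (0.068) and the assembly factor Ndufaf7 (0.175) showed next to none. The part of array brightness in the shared layout was not tested beyond the fit with it as a covariate, given below.

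**Figure D3:**
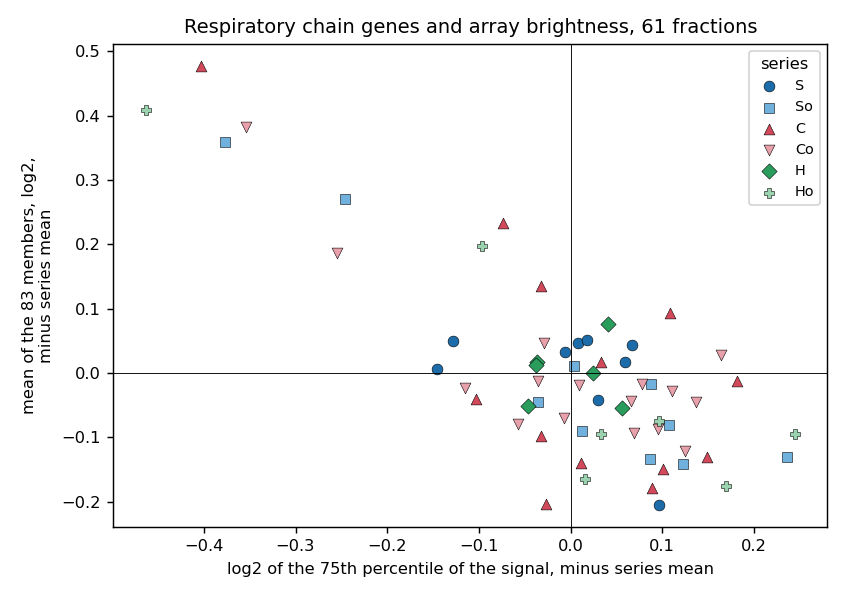
Mean log2 level of the 83 members against the log2 of the 75th percentile of each array's signal, both minus the mean of the series, with 1 point per fraction (61 in all). The 4 faintest arrays of their series, C13, Ho1, Co1 and So1, hold the 4 highest means, and r is −0.797.

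Along the coronal plane, respiratory chain genes were lower in the middle of the brain than toward its caudal and rostral ends, mainly in mouse C. The middle was pairs 5 to 9, and the ends were pairs 1 to 4 and 10 to 13, each end with equal weight. In limma 31 members fell at an adjusted p under 0.05, or 37.3%, against 19.5% of all probes tested, and 2 rose, or 2.41%, against 15.5%. With the mouse as a replicate block 56 fell, or 67.5%, against 28.4%, and 2 rose, against 21.5%. One of the 31 was Cox8c, at background in all coronal fractions. The members' median change was −0.16 (log2), against −0.06 over all probes tested, and 77 of 83 members lay below 0.

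In complex I 15 of 35 members fell, in complex III 3 of 8, in complex IV 5 of 18 with Cox8c among them, in complex V 8 of 17, and of the assembly factors 0 of 5. The fall was larger in mouse C (median −0.27) than in mouse Co (−0.07), though 64 of the 78 members that both mice measured lay below 0 in both. The difference between the mice was itself tested: Cox7c passed of 78 members, 23 had an unadjusted p under 0.05, and 1.32% of 36050 probes were called. This difference, Co minus C, had a median of 0.18 over the members, against 0.03 over all probes. It was negative in only 5 of the 78 members, so the fall was weaker in Co for most of them.

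In complex I, Ndufa1, an accessory subunit needed for assembly, read 4.42 to 4.67 in the middle of C and 4.58 to 6.07 at its ends. The middle of Co read 4.94 to 5.20 and its ends 5.08 to 5.55, so that the groups overlapped in both mice. Its change was −0.29 (SE 0.11, adjusted p = 0.0317). Ndufa4 read 4.90 to 5.06 against 5.00 to 5.69 in C and 5.06 to 5.26 against 5.16 to 5.38 in Co. It fell by 0.28 (SE 0.05, adjusted p = 8e-05), and the groups overlapped in both mice.

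In complex III, Uqcrb, a small matrix-side subunit, read 2.16 to 2.47 in the middle of C and 2.32 to 3.92 at its ends. In Co, where 3 of the 16 arrays had the spot marked as an outlier and left out, it read 3.11 to 3.20 in 3 middle fractions and 3.24 to 3.70 in 7 end fractions, without overlap. Uqcrb fell by 0.56 (SE 0.14, adjusted p = 0.00208), the largest fall of a detected member. The Rieske iron-sulfur protein Uqcrfs1 and the core proteins Uqcrc1 and Uqcrc2 did not pass.

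In complex V, Atp5l had a median of 4.65 and a highest value of 4.77 in the middle of C, and read 4.71 to 5.81 at its ends, and 4.53 to 4.77 against 4.66 to 5.21 in Co. It fell by 0.30 (SE 0.07, adjusted p = 0.000596). Atp5e (−0.29), Atp5o (−0.26), Atp5h (−0.24), Atp5b (−0.20) and Atp5c1 (−0.16) fell with it, which are subunits of the head, stalks and catalytic core, as did Atp5j2 (−0.26) and Atp5g3 (−0.15), a gene of the rotor ring.

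**Figure D4:**
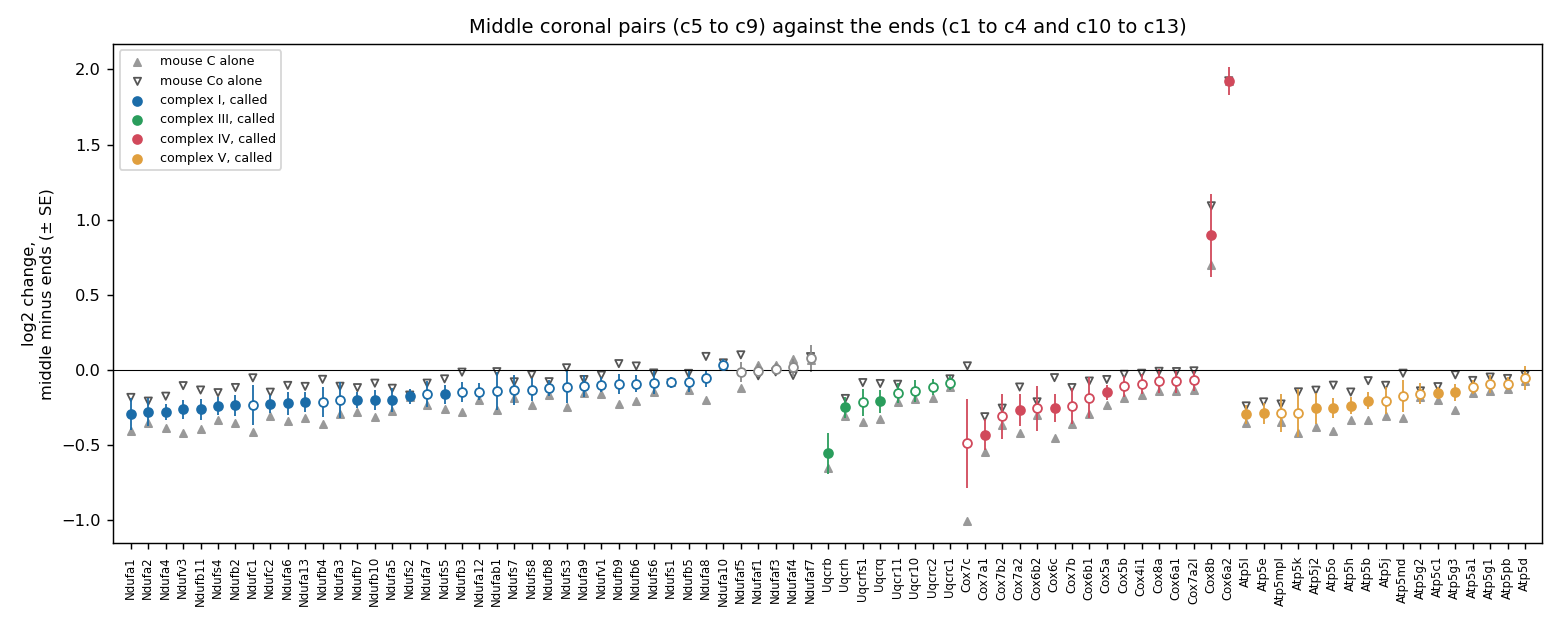
Log2 change of each member detected on all arrays, middle coronal pairs minus ends, with the SE of the fit. Filled points passed the adjusted p, and triangles give each mouse alone, which is missing where spots were left out. Cox6a2 (1.93) and Cox8b (0.90) lie above 0, and mouse C lies below mouse Co for most members.

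Array brightness and marker genes of other cells differed along the same axis. In C the 75th percentile was 1191 to 1350 in the middle and 921 to 1381 at the ends, and in Co 1646 to 1919 and 1581 to 1883. With brightness as a covariate 39 members were called, 37 of them down. Leaving out array C5, C6 or C8 left 20, 21 and 21 members called, and these 3 arrays share a slide. Without mouse C 2 members were called, and without mouse Co 47. With the slide as a fixed block, 7 were called.

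Of 6 astrocyte markers 3 fell in the middle, with a summed level of 30.0 to 33.6 there in C against 31.9 to 48.9 at the ends, on the linear scale relative to the 75th percentile. In Co the sums were 27.0 to 33.6 and 27.7 to 51.6. Of 5 endothelial markers 3 fell, with sums of 19.6 to 22.6 against 19.8 to 42.8 in C and 19.1 to 24.1 against 20.4 to 43.1 in Co. All 5 cerebellar granule cell markers fell, with sums of 8.2 to 24.5 against 5.9 to 165.1 in C and 6.8 to 29.5 against 4.4 to 161.6 in Co, and all 5 forebrain excitatory neuron markers rose, with sums of 98.9 to 178.1 against 3.1 to 196.1 in C and 81.5 to 151.8 against 3.1 to 179.0 in Co. Of 8 pan-neuronal markers 1 rose and 0 fell, with sums of 219.8 to 228.7 against 197.6 to 258.3 in C and 236.5 to 261.7 against 184.9 to 259.4 in Co. Of 7 oligodendrocyte markers 3 rose, with sums of 208.9 to 239.3 against 115.1 to 444.2 in C and 240.6 to 285.9 against 103.5 to 370.1 in Co, and of 5 microglia markers 2 rose, with sums of 11.2 to 12.4 against 6.8 to 20.3 and 10.7 to 13.5 against 5.7 to 17.0. Of 4 parvalbumin neuron markers 3 fell, with sums of 14.1 to 17.8 against 12.8 to 38.6 and 15.5 to 23.9 against 15.2 to 39.3, and both blood markers fell, with sums of 2.0 to 5.5 against 1.4 to 11.1 and 1.6 to 3.0 against 1.5 to 7.3. Of 4 olfactory bulb markers 3 fell, and of 5 striatal markers 2 rose and 1 fell. The part of cell composition in the lower middle of the respiratory chain genes was not tested.

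Genes that work beside the chain gave a mixed picture in the same contrast. Of 6 genes of complex II and the mobile carriers 2 fell: Cycs (−0.24), the somatic cytochrome c, and Sdhd (−0.17), a membrane anchor of complex II. Of 11 complex IV assembly and copper delivery genes 4 fell and 0 rose, led by Cox16 (−0.50), Cox20 (−0.50) and Cox14 (−0.33), with Sco1 (−0.19), a copper chaperone. Of 10 regulators of mitochondrial biogenesis 4 fell: the orphan nuclear receptor Esrra (−0.32), nuclear respiratory factor Nrf1 (−0.32), and Gabpa (−0.31) and Gabpb1 (−0.20), the subunits of the ETS-family factor GABP. The coactivator Ppargc1a (−0.17, SE 0.13) and the mitochondrial transcription factor Tfam (−0.07, SE 0.06) did not pass.

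Of the citric acid cycle, Idh3g (−0.11), a subunit of isocitrate dehydrogenase, and Suclg2 (−0.38), a subunit of succinyl-CoA synthetase, fell. Of 15 glycolytic genes 4 rose and 3 fell, so that this list had no common direction. Lactate dehydrogenase showed both: Ldha, of the muscle-type subunit, rose by 0.41 and Ldhb, of the heart-type subunit, fell by 0.28. Of the sodium pump, the beta subunits Atp1b2 (−0.27) and Atp1b3 (−0.22) fell, and of 8 mitochondrial carrier and outer membrane genes 2 fell, Slc25a5 (−0.27) and Vdac3 (−0.10).

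Cox6a2 was the member with the strongest regional pattern, and the same one in both mice of each plane. In C it read −2.75 in C1, −1.43 in C2, −1.08 in C3 and −0.83 in C4, then 1.06, 1.34, 2.10, 2.22 and 1.85 in C5 to C9, and 1.65, 1.56, 0.48 and 0.72 in C10 to C13. The caudal fractions, which hold the hindbrain and cerebellum, were thus low, the level peaked in the eighth pair, and it was intermediate at the rostral end. In Co the lowest value was −2.13 in Co2, the median 1.13 and the highest 2.95 in Co9, and the middle fractions read 1.15, 1.38, 2.31, 2.95 and 2.30.

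The change of Cox6a2 from ends to middle was 1.93 (SE 0.09, adjusted p = 1.62e-16 in limma), with 1.93 in mouse C and 1.92 in mouse Co. Middle and ends overlapped in both mice, since the ends take in pairs 10 and 11. Its caudal to rostral slope was 0.29 per fraction (SE 0.01, adjusted p = 1.02e-18). In the horizontal plane it read 1.95, 1.61, 1.68, 1.31, 0.76 and 1.12 from dorsal to ventral in H, and went from 2.70 in Ho1 to 0.99 in Ho6. Over the pairs, which leave out Ho1, its slope was −0.21 (SE 0.04, adjusted p = 0.000213).

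In the sagittal plane Cox6a2 read 1.17, 1.23 and 0.97 at the midline of S and 1.85, 1.69, 1.40 and 2.03 in its lateral fractions. In So it read 0.95, 1.11 and 1.12 at the midline and 1.42 to 2.24 laterally. Midline and lateral fractions did not overlap in either mouse, and the change was −0.62 (SE 0.12, adjusted p = 0.000387), with −0.62 in each mouse alone. Its ubiquitous partner Cox6a1 passed in none of these contrasts, with −0.08 (SE 0.08) for middle against ends and 0.013 (SE 0.0099) for the caudal to rostral slope.

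Cox7a1 showed nearly the reverse layout. It read 2.03, 1.88, 2.07 and 2.00 in C1 to C4, then 1.42, 0.92, 1.00, 0.88 and 0.77 in C5 to C9, and 0.63, 0.86, 1.18 and 1.74 in C10 to C13. In Co its highest value was 2.88 in the unpaired Co1, outside the test, and its lowest 0.86 in Co12. It was thus high caudally, lowest in pair 10 in C and in pair 11 in Co, and high again at the rostral end. Its slope was −0.10 per fraction (SE 0.01, adjusted p = 9.58e-08) and its change in the middle −0.43 (SE 0.10, adjusted p = 0.00117), with −0.55 in mouse C and −0.31 in mouse Co. Its ubiquitous partner Cox7a2 had a slope of 0.016 (SE 0.014) that did not pass, and fell by 0.27 in the middle (SE 0.11, adjusted p = 0.0483).

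Cox8b had a pattern with separate peaks. In C it read −3.71, −3.72, −2.03 and −1.09 in C1 to C4, then −2.13, −3.72, −1.99, −2.03 and −2.64 in C5 to C9, and −4.15, −4.38, −3.88 and −2.64 in C10 to C13. In Co the highest value was 1.02 in the unpaired Co1, outside the test. The lowest was −3.61 in Co12, with −0.76, −2.61, −1.02, −0.83 and −0.94 in the middle fractions. Both mice were high in pair 4 and in pairs 7 and 8, low in pair 6 between them, and lowest in pair 11. Middle and ends overlapped in both mice, and the change was 0.90 (SE 0.27, adjusted p = 0.0114). Its slope from dorsal to ventral was 0.40 (SE 0.12, adjusted p = 0.0163), with −3.87 in H1 and −1.47 in H5. Its ubiquitous partner Cox8a read 6.20 in C4 and 7.25 in C13, and its change in the middle was −0.08 (SE 0.08) and did not pass.

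**Figure D5:**
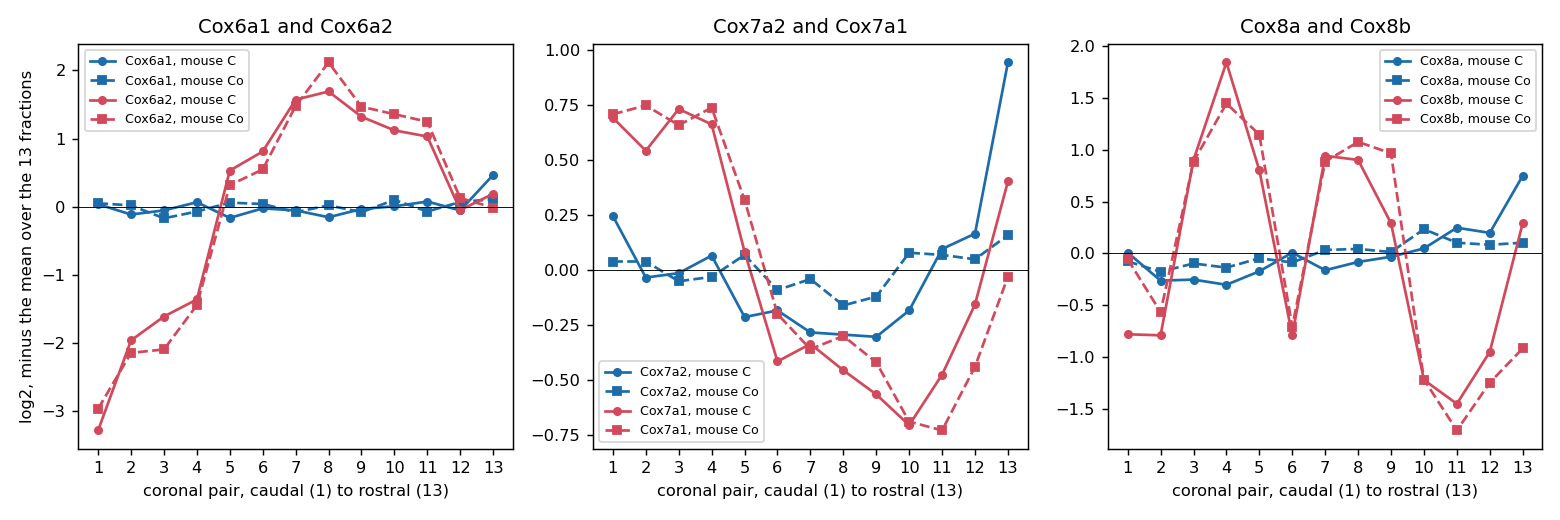
Log2 level of the ubiquitous form (blue) and the heart and muscle form (red) of subunits 6a, 7a and 8 of complex IV in the 13 coronal pairs, minus the mean over these fractions, with 1 line per mouse. The red lines of both mice run together, with Cox6a2 highest in pair 8, Cox7a1 lowest in pairs 10 and 11 and Cox8b peaking in pairs 4 and 8. The vertical axes differ between panels.

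These isoforms went with different marker genes over the 61 fractions. The measure was Pearson's r of values centred per series, given as a description because the fractions share mice and slides. Cox6a2 was most like Acta1 (r = 0.911), the skeletal muscle actin, then the synaptic vesicle gene Syt1 (0.905), and Nrgn (0.880) and Camk2a (0.875), genes of forebrain excitatory neurons, and least like Aqp4 (−0.886), the astrocyte water channel. Other genes of the same lists did not follow it, with r of −0.440 for Mylpf and 0.015 for Tnnc2 among the muscle markers, and of 0.039 for Snap25, −0.271 for Stmn2 and −0.593 for Nefl among the neuron markers. Cox7a1 was most like Aqp4 (0.911) and Gja1 (0.782), the astrocyte gap junction gene, and least like Syt1 (−0.840). The other astrocyte markers ranged from −0.234 (Slc1a2) through Slc1a3 (0.123) and Aldh1l1 (0.442) to Gfap (0.768), and the blood markers Hba-a1 (0.749) and Alas2 (0.717) stood near Gja1. Cox8b was most like Kl (0.762), Folr1 (0.745) and Ttr (0.725), genes of the choroid plexus. For Aqp1 and Kcne2 of that list no r is given, and Aqp1 fell in the coronal middle (−0.92), where Cox8b rose. The 7 oligodendrocyte markers also went with Cox8b, with r from 0.559 (Mobp) to 0.599 (Mag).

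Of the 6 skeletal and heart muscle markers, Acta1 (0.98), Myh1 (1.76) and Myh6 (0.79) rose in the coronal middle and Mylpf (−0.25) fell. Ckm (−0.07) and Tnnc2 (−0.01) did not pass. The summed level of the 6 was 1.2 to 1.5 in the middle of C against 0.6 to 1.6 at its ends, and 1.2 to 1.7 against 0.5 to 1.8 in Co. Of the 5 choroid plexus markers 4 rose and 1 fell (Aqp1, −0.92), and their summed level was 0.6 to 7.9 against 0.4 to 14.4 in C and 0.5 to 11.3 against 0.4 to 21.5 in Co. The part of muscle or choroid plexus tissue in the levels of Cox6a2 and Cox8b was not tested.

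Along the whole caudal to rostral axis the members had no common direction. In limma 7 rose (8.43%, against 19.7% of all probes tested) and 11 fell (13.3%, against 26.3%), and all 18 had the same sign in both mice. This split depends on the scaling: scaled to the median of each array 23 rose and 3 fell, with the authors' normalized values 24 rose and 3 fell, and after normexp and quantile normalization 8 and 21. The assembly factors were called most often, 4 of 5, with Ndufaf3 up (0.029) and Ndufaf7, Ndufaf5 and Ndufaf1 down.

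Besides Cox6a2, the largest slopes up were those of Atp5g2 (0.043, SE 0.0090), another gene of the rotor ring, Cox8a (0.040), the complex I subunit Ndufa7 (0.040) and Atp5d (0.033), the delta subunit of the ATP synthase head. Atp5g2 read 4.32 in C2 and 5.67 in C13, and in Co 4.63 in Co7 and 5.22 in the unpaired Co16, outside the test. Besides Cox8b and Cox7a1, the largest slopes down were those of Cox7b2 (−0.057, SE 0.019) and Cox6b2 (−0.055, SE 0.019), isoforms known from testis, and of Ndufb8 (−0.037, SE 0.0070, adjusted p = 5.99e-05). Ndufb8 was highest in C1 (6.60) and Co1 (6.81), the caudal end of both mice, though the unpaired Co1 was outside the test. The ubiquitous partners Cox7b (0.0015, SE 0.016) and Cox6b1 (0.0039, SE 0.018) did not pass.

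From dorsal to ventral 3 members rose, or 3.61%, against 8.97% of all probes tested, and 1 fell, or 1.20%, against 6.11%. With the mouse as a replicate block 9 rose, against 15.6%, and 1 fell, against 12.8%. Beside Cox8b and Cox6a2 these were Cox7a2l (0.091, SE 0.029, adjusted p = 0.0288) and Ndufb8 (0.069, SE 0.023, adjusted p = 0.0362). Cox7a2l read 2.67 in H2 and 3.16 in H6. Its highest value in Ho, 3.57, was in the unpaired Ho1, outside the test. Scaled to the median, 1 rose and 1 fell. Without H1, H2 or Ho7 1 member was called, and without Ho2 or Ho6 2 were.

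At the midline 4 members fell, or 4.82%, against 9.09% of all probes tested, and 0 rose, against 10.5%. With the mouse as a replicate block 8 fell, against 15.6%, and 2 rose, against 17.6%. At an unadjusted p under 0.05 limma called 7. Beside Cox6a2 these were Cox8a (−0.30, SE 0.11, adjusted p = 0.0463), Ndufb9 (−0.24, SE 0.09, adjusted p = 0.0448), an accessory subunit of complex I, and Ndufaf3 (−0.15, SE 0.05, adjusted p = 0.039). Cox8a read 6.78 to 6.87 at the midline of S and 6.83 to 7.23 laterally, and 6.41 to 6.48 against 6.62 to 7.10 in So. The groups overlapped in S and not in So. Scaling to the median moved the median of all probes from 0.00 to −0.10 in this contrast, and 10 members were called. After normexp and quantile normalization 1 rose and 2 fell. In mouse S alone the members' median was 0.055 and in mouse So −0.14. Without So2 1 member was called, and without S2, S3, S9, So6 or So9 2 were. The count was also 2 without H3, H5, Ho4 or Ho6, arrays of the horizontal plane that enter only the estimate of the spread.

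From left to right, the axis of mirror symmetry, 0 members rose, against 0.295% of all probes tested, and 0 fell, against 0.211%. With the mouse as a replicate block 3 rose, against 2.35%, and 1 fell, against 2.66%. At an unadjusted p under 0.05 limma called 13 of 83, and the share of all probes at this cut is not given. The members' slopes ran from −0.033 to 0.11, and 79 of them were above 0. Their median was 0.025 per fraction, against 0.0004 over all probes tested, so the members shared a small shift on this axis too. The part of slide and scan session in it was not tested.

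Levels also differed between the mice of a plane. Each side of these comparisons is 1 mouse. Their p-values thus measure how constant a difference was over the paired fractions of 2 animals, and not the spread between mice. From C to Co 43 members were higher, or 51.8%, against 26.8% of all probes tested, and 9 lower, or 10.8%, against 26.6%, with a median of 0.14. After normexp and quantile normalization this split was 42 and 16. From S to So 7 were higher, or 8.43%, against 11.9%, and 31 lower, or 37.3%, against 18.2%, with a median of −0.12. Scaled to the median of each array this split was 8 and 13. From H to Ho 0 were higher, against 3.77%, and 1 was lower (Cox7b2, −0.50), against 1.58%. At an unadjusted p under 0.05 limma called 9 members there. Mouse and angle cannot be told apart, nor, in the coronal and sagittal planes, the scan session, which only C13 and S2 did not share with the rest of their series. H and Ho were scanned together. The brightness of the arrays differed with them, with a median 75th percentile of 1227 in C against 1759 in Co and of 1030 in S against 1261 in So. With brightness as a covariate, the median was 0.41 from C to Co and 0.05 from S to So, where 6 members were called, all of them higher in So.

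Cox7c, a small subunit of complex IV, differed most, by 1.29 (SE 0.17, adjusted p = 1.72e-07) from C to Co. It read −0.93 to 0.91 in C, with a median of −0.48, and 0.89 to 1.41 in Co, with a median of 1.14. The series touched only at their edges. Within C the level went with the slide: C1 to C4, on 1 slide, read 0.45 to 0.91, C5 to C8 −0.93 to −0.60, C9 to C12 −0.90 to −0.34, and C13 0.52. In Co the 4 slides read 0.89 to 1.41. With the slide as a random block the difference was 1.23. Cox8b (1.03), Atp5k (0.63), subunit e of the ATP synthase, Ndufab1 (0.62) and Ndufc1 (0.60) were also higher in Co, and Ndufaf7 (−0.33), Ndufa9 (−0.32), Ndufb5 (−0.26), Cox6a1 (−0.25) and Cox4i1 (−0.17) lower. With brightness as a covariate Cox6a1 (0.08) and Cox4i1 (0.21) changed sign. From S to So, Cox8b (−0.67), Cox7b2 (−0.42), Atp5k (−0.36), Cox8a (−0.32) and Cox7b (−0.32) were lower, and Ndufaf7 (0.32), Cox7a2l (0.26), Ndufb5 (0.20), Atp5a1 (0.20), the alpha subunit of the ATP synthase, and Ndufaf4 (0.19) higher. Atp5k changed sign with brightness as a covariate (0.06).

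The promoters were searched because respiratory chain genes are known to share sites for nuclear respiratory factor 1 and GABP. RefSeq promoters on GRCm38.p6, from 250 bases before to 50 after a start, were found for 69 members, 74 promoters in all. The NRF1 core GCGCATGCG, on either strand, was present in 12.2% of them and in 1.75% of all 32851 promoters. The ETS core CCGGAAG was present in 21.6% against 8.86%, and the YY1 core AAGATGGCG in 9.46% against 1.40%. CCAAT was present in 41.9% against 37.4%, TATAAA in 12.2% against 13.6% and CAGCTG, an E-box, in 6.76% against 16.3%. A match is a description of the letters and not a site.

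The 250 bases upstream of 4 members are shown: Atp5l, which followed the common layout, Cox6a1 and Cox8a, ubiquitous forms, and Cox8b, the form with peaks. Capitals mark the motifs above on either strand. All 4 genes lie on the minus strand, and each sequence is written 5′ to 3′ along the gene.
Atp5l, chr9:44920743-44920992: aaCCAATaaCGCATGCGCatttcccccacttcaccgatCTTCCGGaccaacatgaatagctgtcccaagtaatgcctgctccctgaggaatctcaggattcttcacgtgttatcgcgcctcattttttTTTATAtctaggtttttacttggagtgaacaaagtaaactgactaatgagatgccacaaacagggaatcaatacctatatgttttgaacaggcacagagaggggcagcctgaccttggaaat
Cox6a1, chr5:115348959-115349208: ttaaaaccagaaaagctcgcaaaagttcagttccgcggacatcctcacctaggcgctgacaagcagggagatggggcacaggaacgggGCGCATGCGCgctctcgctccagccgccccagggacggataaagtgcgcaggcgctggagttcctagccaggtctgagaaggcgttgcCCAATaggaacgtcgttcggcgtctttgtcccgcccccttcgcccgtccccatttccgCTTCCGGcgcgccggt
Cox8a, chr19:7217617-7217866: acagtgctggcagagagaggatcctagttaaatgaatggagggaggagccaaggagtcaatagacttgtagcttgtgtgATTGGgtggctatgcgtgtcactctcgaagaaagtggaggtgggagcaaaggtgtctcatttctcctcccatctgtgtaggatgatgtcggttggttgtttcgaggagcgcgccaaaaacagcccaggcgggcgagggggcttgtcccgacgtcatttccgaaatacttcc
Cox8b, chr7:140900447-140900696: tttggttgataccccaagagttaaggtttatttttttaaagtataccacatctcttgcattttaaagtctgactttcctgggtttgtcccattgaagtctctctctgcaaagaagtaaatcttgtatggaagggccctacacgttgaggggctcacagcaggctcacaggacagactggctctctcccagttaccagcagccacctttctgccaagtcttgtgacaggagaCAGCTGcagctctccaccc
The NRF1 core stood 241 to 233 bases before the start of Atp5l. In Cox6a1 it was read on both strands, 162 to 154 and 161 to 153 bases before the start, in matches that overlap. The ETS core stood 212 to 206 bases before the start of Atp5l and 16 to 10 before that of Cox6a1. In the printed bases of Cox8a a CCAAT box was found, and in those of Cox8b an E-box, 19 to 14 bases before the start. The ETS core of Cox8a and the TATAAA of Cox8b that enter the shares above do not lie within the bases printed. Cox6a2 and Cox4i1 are among the 14 members without an entry.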

How the data were processed

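Total RNA of each fraction was labelled with Cy3 and hybridised to 1-colour Agilent whole mouse genome arrays. The authors deposited spot intensity from Agilent Feature Extraction (version 9.1), background-subtracted and not normalized between arrays, together with intensity values on a linear scale that GeneSpring GX had normalized for each array. For this work the log2 of the deposited scanner intensity was averaged over a probe's spots, without outlier spots, and reduced by the log2 of the array's 75th percentile. Probes detected above background in 1 array or more were tested. Probes were named through the RefSeq accession.

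limma 3.58.1 in R 4.3.3 (lmFit, eBayes) was fitted to 56 arrays in 28 pairs, with 27 numerator, 28 residual and 1.88 prior degrees of freedom, and Benjamini-Hochberg adjustment over all detected probes at 0.05. The paper's methods use a one-way ANOVA over the same pairs. The middle, slope and midline contrasts and the differences between mice came from such fits, and the code was tested on simulated data. The number of arrays and mice limits the precision. Named genes were the 10 largest and 5 smallest F, up to 5 rises and 5 falls per contrast, the 5 highest and 5 lowest r with the complex, the isoform families and the fixed lists. Tables and figures used Python 3.11.15, numpy 2.4.6, pandas 2.3.3 and matplotlib 3.10.9. The members and lists were chosen with earlier results of these data known.

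All fractions of a series come from 1 mouse, while the partner fractions of a pair come from different mice. When each array was set against its pair mean, these deviations had a median r of 0.279 in 129 same-mouse combinations (114 over 0.1) and of −0.026 in 249 combinations across planes. The alternatives were other scalings, probe filters, pairings and planes, blocks for mouse, slide and scan session, and leaving out each array or mouse, with array brightness as a covariate added after seeing the data. Some genes of the citric acid cycle and sodium pump lists are not reported here, so no counts are given for these lists.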

Additional observations from a re-analysis of the deposited data

Results flagged for a closer look

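In series of 4 to 10 fractions, a fraction was singled out when its gap to the nearest other, divided by the range of the series, passed Dixon's 95% critical value. Of 184 series tested 26 passed. The series share arrays, and many genes were named for extreme values in these data. The rate of 1 in 20 for a single test is thus no yardstick for this count. Of the 26, 16 were 1 array, S2, the lowest fraction of its series, and 10 were others. S2 was the only array of S on its slide and in its scan session, both shared with So1 and So2, while S3 to S10 were scanned in another session. The part of slide and session in its values was not tested.

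S2 was lowest for complex I (−0.19), III (−0.15), IV (−0.34) and V (−0.20) and for all members (−0.21), on the centred log2 scale. On the log2 scale relative to the 75th percentile it was lowest for Cox8b (−3.87), Ndufb11 (5.82), Ndufs7 (4.67), Atp5g2 (4.63), Atp5l (4.72), Atp5k (3.82), Cox7b (4.05), Atp5j2 (4.95), Ndufa13 (6.89), Cox6b1 (1.42) and Atp5g1 (4.39). The assembly factors were highest in So1 (0.24) and Ho1 (0.19). Ho1 was also highest for Atp5d (4.57), Ndufaf3 (2.71) and Ndufa9 (5.05). The remaining fractions were H1 for Atp5d (4.27, highest), Ho7 for Cox7a1 (2.20, highest), H6 for Atp5a1 (5.96, lowest), Ho4 for Atp5a1 (6.03, lowest) and Ho5 for Cox6b1 (0.66, lowest).

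The change of Cox7c from the coronal ends to the middle differed between mouse Co and mouse C by 1.03 (SE 0.21, adjusted p = 0.0406 in limma's test of the difference), with −1.005 in C and 0.03 in Co. In C the middle fractions C5 to C8 (−0.93 to −0.60) lay on 1 slide, C1 to C4 (0.45 to 0.91) on another, and C9 with C10 to C12 (−0.90 to −0.34) on another. Steps at slide borders were also seen in S, with 0.17 to 0.40 in S3 to S6 and 0.75 to 0.93 in S7 to S10, and in H, with −0.06 and −0.05 in H1 and H2 and −0.57 to −0.24 in H3 to H6. The part of the slide in this difference was not tested, and mouse and angle cannot be told apart.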

How the results depend on the processing

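Each plane had 2 mice, and array brightness moved with the shared layout, so small shifts of the members rest on few animals and on the scaling. Cox4i2 and Cox8c were too weak to compare on most arrays.

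With the mouse as a replicate block, 72 members varied over the pairs, 58 were called in the coronal middle, 10 from dorsal to ventral, 10 at the midline and 4 from left to right. Without the pairs as a block, 0 members were called from H to Ho and 16 from S to So. Scaled to the median, the caudal to rostral median was 0.011, 2 members were called from dorsal to ventral and 10 at the midline (median −0.16), 21 from S to So (median −0.051), and the range of the assembly factors was 0.57. In the authors' normalized table these were 0.012, 2, 11 (−0.16), 22 (−0.047) and 0.57. After normexp and quantile normalization 29 members were called from caudal to rostral, the midline median was 0.038, Cox8c read 0.005 in the coronal middle, and the ranges of complexes I, III, IV and V were 0.48, 0.58, 0.51 and 0.61, of the assembly factors 0.57 and of all members 0.46. The differences of the members' median from that of all probes in the coronal middle were −0.10 to −0.11 under these scalings.

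With brightness as a covariate the medians were 0.41 from C to Co and 0.053 from S to So, where 6 members were called, and Cox6a1 (0.081), Cox4i1 (0.21) and Atp5k (0.056) changed sign. With the slide as a fixed block 1 member was called from caudal to rostral (median 0.0098), 7 in the coronal middle and 1 from dorsal to ventral; the F and the sagittal contrasts could not be estimated. With the slide as a random block (consensus correlation 0.539) the caudal to rostral median was 0.0017, 7 members were called at the midline, and 28, 0 and 4 between the mice of the coronal, horizontal and sagittal planes, with a sagittal median of −0.053. With the scan session as a fixed block 33 were called from caudal to rostral, 56 in the middle, 18 from dorsal to ventral, 12 at the midline and 3 from left to right, and the F could not be estimated.

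With pairs by equal fraction number 20 members varied over the pairs, 13 were called in the middle, 0 from dorsal to ventral (median −0.028, Ndufb8 −0.0054) and 0 at the midline, 0 from H to Ho and 19 from S to So, and the caudal to rostral median was −0.013. In single planes 8 (coronal), 1 (horizontal) and 1 (sagittal) members varied over the pairs. With the horizontal pairs alone 0 members were called from H to Ho, and with the sagittal pairs alone 1 at the midline. With all probes 1 member was called at the midline, and with probes well above background on all arrays 2 were called from H to Ho. The causes were not tested.

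Leaving out each array or mouse gave 17 to 49 members over the pairs, caudal to rostral medians of −0.0059 to 0.0031, 2 to 47 members in the middle with medians of −0.27 to −0.075, 1 to 4 from dorsal to ventral, 1 to 5 at the midline with medians of −0.14 to 0.055, 0 to 1 from left to right and 1 to 2 from H to Ho. The lowest and highest counts in the middle were those without mouse C and without mouse Co.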
